A study of Mus musculus with 6 samples.

Results

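Voltage-gated calcium and sodium channel genes and potassium channel genes were examined in RNA of mouse lung squamous cell carcinoma biopsies. They were taken by symbol: names beginning CACNA, CACNB, CACNG or KCN, and names made of SCN, a number and A or B. Of 139 such symbols, 5 antisense or overlapping transcripts and 15 genes with fewer than 30 counts in all were left out, leaving 119 members among the 46937 symbols of the table. The best counted genes left out were KCNJ4, KCNA1 and KCNV2 with 26, 25 and 22 counts, and the lowest members were KCNJ1, KCNK10 and KCNMB3 with 32, 33 and 35. Of the members, 98 had enough counts to be tested among the 21201 genes tested, and all 119 are annotated as protein coding in GENCODE M21. The tumours of both groups carry PIK3CA H1047R, a constitutively active PI3K, with SOX2 overexpression and deletion of CDKN2A and CDKN2B. The 3 control biopsies are called PSC and have NSD3 WT. The other 3 biopsies, PSCN, express the NSD3 T1242A mutant in addition. The promoter or cell type that drives each allele, and the ages of the mice, are not given in the sources used here.

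These channels are membrane proteins whose pores open and close to let ions cross. Voltage-gated calcium and sodium channels have a large pore-forming alpha subunit with voltage sensors, which smaller auxiliary subunits bring to the membrane and tune. Potassium channels form the most varied group: Kv, KCNH and KCNQ channels open with voltage, KCNJ channels rectify inward, KCNK channels leak, and KCNM and KCNN channels respond to calcium. They are best known in neurons and muscle, and in airway epithelium potassium channels of the basolateral membrane sustain chloride secretion.

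Promoters of the 3 members with the smallest p are printed because the results turn on these genes and because their base composition differs. Each spans 250 bases before to 50 after a RefSeq start site, written 5′ to 3′ on the gene's strand, with every CG dinucleotide in capitals. The sequences are from RefSeq on GRCm38.p6, at chr1:154725871-154726170 (minus strand) for CACNA1E, chr2:24763103-24763402 (minus strand) for CACNA1B and chr11:106349341-106349640 (minus strand) for SCN4A.
CACNA1E: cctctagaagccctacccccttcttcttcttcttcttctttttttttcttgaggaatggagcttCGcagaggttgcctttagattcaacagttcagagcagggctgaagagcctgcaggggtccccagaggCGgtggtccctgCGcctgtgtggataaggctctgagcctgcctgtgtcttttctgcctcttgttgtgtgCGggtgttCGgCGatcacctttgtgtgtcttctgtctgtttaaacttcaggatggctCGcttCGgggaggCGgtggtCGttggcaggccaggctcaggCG
CACNA1B: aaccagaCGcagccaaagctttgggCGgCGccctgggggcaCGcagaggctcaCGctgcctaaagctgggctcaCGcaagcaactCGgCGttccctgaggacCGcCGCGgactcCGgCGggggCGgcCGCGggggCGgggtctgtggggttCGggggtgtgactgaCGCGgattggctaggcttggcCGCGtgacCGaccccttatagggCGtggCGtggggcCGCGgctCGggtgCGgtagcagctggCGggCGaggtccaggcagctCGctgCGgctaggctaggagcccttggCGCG
SCN4A: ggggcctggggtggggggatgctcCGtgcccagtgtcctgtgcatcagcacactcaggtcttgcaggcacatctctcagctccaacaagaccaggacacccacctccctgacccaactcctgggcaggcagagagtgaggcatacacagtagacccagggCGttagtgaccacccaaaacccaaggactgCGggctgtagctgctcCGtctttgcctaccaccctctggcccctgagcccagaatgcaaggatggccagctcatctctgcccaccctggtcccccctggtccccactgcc
For CACNA1E and SCN4A this start lies inside the GENCODE gene, which has further transcripts starting upstream, so other promoters of these genes are not shown. These windows hold 11, 35 and 4 CG dinucleotides. Promoter entries matched 70 of the 98 tested members by symbol. Over their 98 start sites the median was 9 CG, with 32.7% holding at least 20, and over all 32851 promoters of the same length it was 7, with 26.5%. The search counted CG only, which reads the same on both strands, and says nothing of methylation.

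Levels are given as CPM, counts scaled to library size after TMM normalization, which evens out composition between libraries. Total counts were 69563622 to 72807077 per library. The targeted gene NSD3 stood at 79.7, 96.7 and 101.7 CPM across PSC libraries 1 to 3, against 821, 918 and 1932 CPM in PSCN libraries 1 to 3 (log2 fold change 3.72, SE 0.41, edgeR adjusted p = 0.137). PSC library 3 stands apart from its group: over the genes tested its log2 CPM correlated at 0.941 on average with the PSCN libraries and at 0.908 with its own group, a description across genes. PSC libraries 2 and 3 came from female mice and the other 4 from male mice by XIST and DDX3Y, so sex is unevenly spread over the groups. PSC library 1 held the lowest basal squamous markers, 421 CPM summed over 8 genes, where PSC libraries 2 and 3 had 1867 and 5600 CPM and PSCN 6916 to 20320 CPM. The squamous label therefore rests on little keratinocyte RNA in that library. Whether each biopsy is from a separate mouse is not stated, so the tests reflect sample-to-sample spread that may be technical. In bulk tissue, fewer cells of a type and less RNA per cell cannot be told apart.

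Most members were lower in PSCN, but none passed the test. Of the 98 tested, 77 had negative log2 fold changes of PSCN over PSC (78.6%, against 50.9% of all genes tested), and the median was -0.89 against -0.01 for all genes. With edgeR's quasi-likelihood test, 0 members were lower and 0 higher at an adjusted p under 0.05, where the shares over all genes tested were 0% and 0.00472%. At an unadjusted p under 0.05, 25 members (25.5%) were lower, against 12.2% of all genes, and 1 member (1.02%) was higher, against 9.48%. The 3 PSCN libraries all lay below the 3 PSC libraries in 17 members (17.3%, against 13.4% of all genes) and all above them in 3 (3.06%, against 15.2%). The first of these shares is near that of all genes. Well counted members were also mostly negative: 53 of the 72 members with a mean of at least 1 CPM were negative (73.6%), against 48.4% of all genes at that level. Below 1 CPM, 24 of 26 members were negative, against 60.1% of genes.

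The count depended on which library was left out. Without PSC library 3, 39 of 107 members were lower at an unadjusted p under 0.05 (background 17.3%), and 16 passed an adjusted p under 0.05 in edgeR (background 5.4%), with 1 higher (background 3.39%). Without PSC library 1 the count lower at an unadjusted p was 17 of 102 (background 7.18%), without PSC library 2 it was 16 of 100 (background 7.75%), and without PSCN library 2 it was 16 of 107 (background 7.44%). DESeq2 called 24 members lower and 0 higher at an adjusted p under 0.05, where it called 8.2% and 4.02% of all genes with an adjusted p. Limma-voom with quality weights called 12 lower and 1 higher, against 5.84% and 8.43%. The authors' deposited table has 25 members lower and 0 higher at an adjusted p under 0.05, against 8.1% and 3.92% of its genes. Averaged over the 98 members, log2 CPM relative to each gene's mean stood at 1.01, 0.59 and -0.08 for the PSC libraries in order, and at 0.02, -0.81 and -0.72 for the PSCN libraries. PSC library 3 thus lay below PSCN library 1. It was nearer to the PSCN mean than to the other PSC libraries in 74 members (75.5%), against 61% of all genes.

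**Figure D1:**
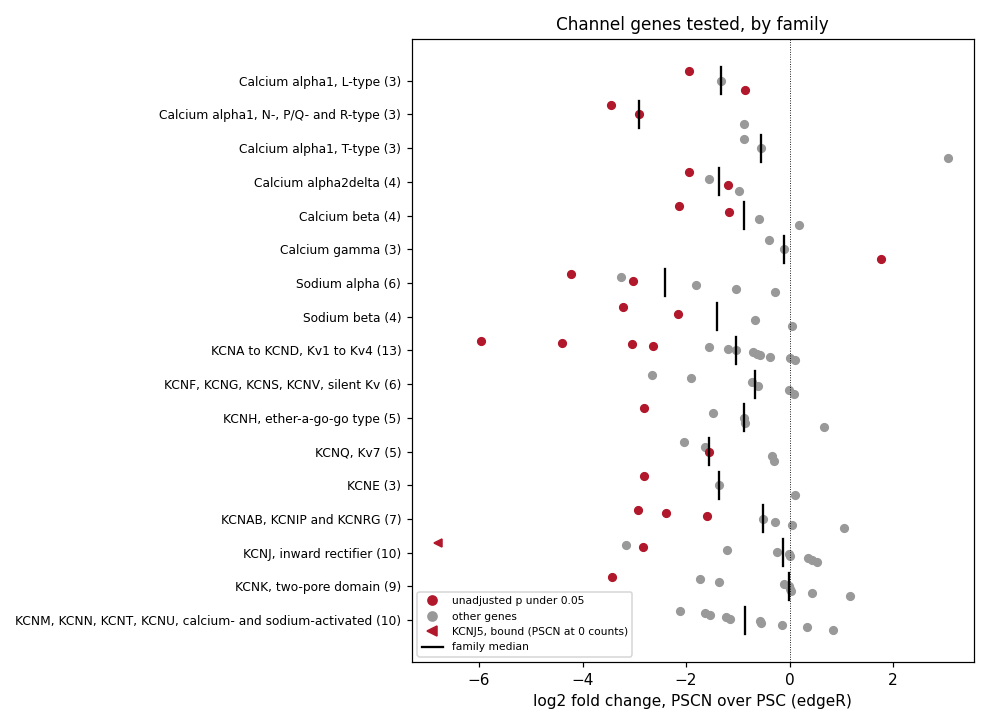
Log2 fold change of PSCN over PSC (horizontal axis) for the 98 channel genes tested, 1 point a gene, in rows by family with the number tested in brackets; black bars are family medians. Red points have an unadjusted p under 0.05 in edgeR, the red arrow is KCNJ5 at its bound of -6.80, and most points lie left of 0; the KCNJ and KCNK medians are -0.13 and -0.02, the first of which was -1.23 with DESeq2 and -1.24 with no filter.

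Calcium channel pores of the N-, P/Q- and R-type, which drive transmitter and hormone release, had a median log2 fold change of -2.90 over 3 genes. CACNA1E, the R-type pore (ENSMUSG00000004110.16, chromosome 1, 154390731 to 154884501 in GRCm38), stood at 16.1, 12.2 and 12.5 CPM across PSC libraries 1 to 3, against 1.71, 0.85 and 1.17 CPM in PSCN libraries 1 to 3. The groups were far apart and, unlike in most members, PSC library 3 sat with its own group. The means were 13.6 ± 2.16 CPM in PSC against 1.24 ± 0.433 CPM in PSCN (mean ± SD, n = 3 each), 10.9-fold lower, with a log2 fold change of -3.45 (SE 0.35, edgeR adjusted p = 0.137). It had the smallest p of the members (unadjusted p = 6.38e-05 in edgeR's fit across all genes). CACNA1B, the N-type pore of nerve terminals (chromosome 2, 24603887 to 24763152), stood at 1.8, 4.17 and 2.42 CPM in PSC against 0.467, 0.402 and 0.251 CPM in PSCN. Again no PSCN library reached any PSC library, and the log2 fold change was -2.90 (SE 0.48, edgeR adjusted p = 0.143). Without PSC library 3, the control most like PSCN, edgeR's adjusted p was 0.0396 for CACNA1E and 0.0445 for CACNA1B. With any other library left out it was 0.24 to 0.389 for CACNA1E and 0.244 to 0.421 for CACNA1B. CACNA1A, the P/Q-type pore, did not follow: its levels overlapped (3.94 to 7.62 CPM in PSC, 1.38 to 6.85 CPM in PSCN).

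L-type pores, which couple excitation to contraction and secretion, were lower with overlap. CACNA1C, the L-type channel of heart and smooth muscle, stood at 30.2, 31.0 and 15.9 CPM in PSC against 16.9, 9.55 and 15.8 CPM in PSCN. PSC library 3 fell among the PSCN values, and the log2 fold change was -0.87 (SE 0.35, edgeR adjusted p = 0.228). CACNA1S, the skeletal muscle form, was near 1 CPM or below, at 1.17, 1.61 and 0.395 CPM in PSC against 0.219, 0.108 and 0.488 CPM in PSCN. Among the T-type pores, which open at low voltage, CACNA1G was high in a single tumour: 1.28, 0.198 and 1.1 CPM in PSC against 19.9, 0.788 and 0.949 CPM in PSCN. Its log2 fold change of 3.06 (SE 1.49) was 0.02 without PSCN library 1. That library also had the highest sum of fibroblast markers, 41200 CPM over 8 genes against 1067 to 3884 CPM elsewhere. Most of it was COL1A1 and COL1A2, at 19230 and 16830 CPM. COL3A1, DCN and LUM were also highest there. PDGFRA, DPT and TCF21 were not, at 122.8, 19.6 and 4.58 CPM against 194.3, 66.7 and 19.9 CPM in PSC library 1. The part of fibroblasts in the CACNA1G value was not tested.

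The auxiliary calcium channel subunits were mostly negative in each family. All 4 alpha2delta genes, extracellular subunits that raise channel number at the membrane, were negative, with a median of -1.37. CACNA2D1, the gabapentin-binding subunit and the most abundant of them by CPM, overlapped at 8.4 to 22.2 CPM in PSC against 4.05 to 15 CPM in PSCN. CACNA2D2 stood at 1.51, 1.56 and 2.42 CPM in PSC against 0.817, 0.216 and 0.391 CPM in PSCN, without overlap (log2 fold change -1.94, SE 0.57). CACNA2D4 also did not overlap, with 1.54 to 1.85 CPM in PSC against 0.544 to 1.14 CPM in PSCN. The beta subunits, cytoplasmic partners of the pore, were uneven. CACNB1 stood at 21.3, 19.3 and 10.8 CPM in PSC against 10.4, 4.93 and 7.58 CPM in PSCN, with PSC library 3 just above the highest PSCN library (log2 fold change -1.17, SE 0.39). CACNB2 was high only in PSC libraries 1 and 2, at 9.73 and 6.63 CPM, and lay between 1.02 and 1.94 CPM in the other 4. CACNB3, the most abundant beta subunit, overlapped fully at 34.6 ± 4.27 CPM in PSC against 39.5 ± 21.2 CPM in PSCN (mean ± SD, n = 3 each), with a log2 fold change of 0.19 (SE 0.38) that was -0.33 without PSCN library 1. The gamma family, with 2 of 3 tested genes negative, gave the single member higher at an unadjusted p. Its median of -0.11 was 1.72 with DESeq2 and -0.46 to 0.88 as each library was left out. CACNG4, a partner of AMPA-type glutamate receptors as well as of calcium channels, stood at 0.364, 0.475 and 1.51 CPM in PSC against 3.76, 1.54 and 2.71 CPM in PSCN. PSC library 3 lay just below the lowest PSCN library, and the log2 fold change was 1.77 (SE 0.68, edgeR adjusted p = 0.214, or 0.0484 without PSC library 3).

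**Figure D2:**
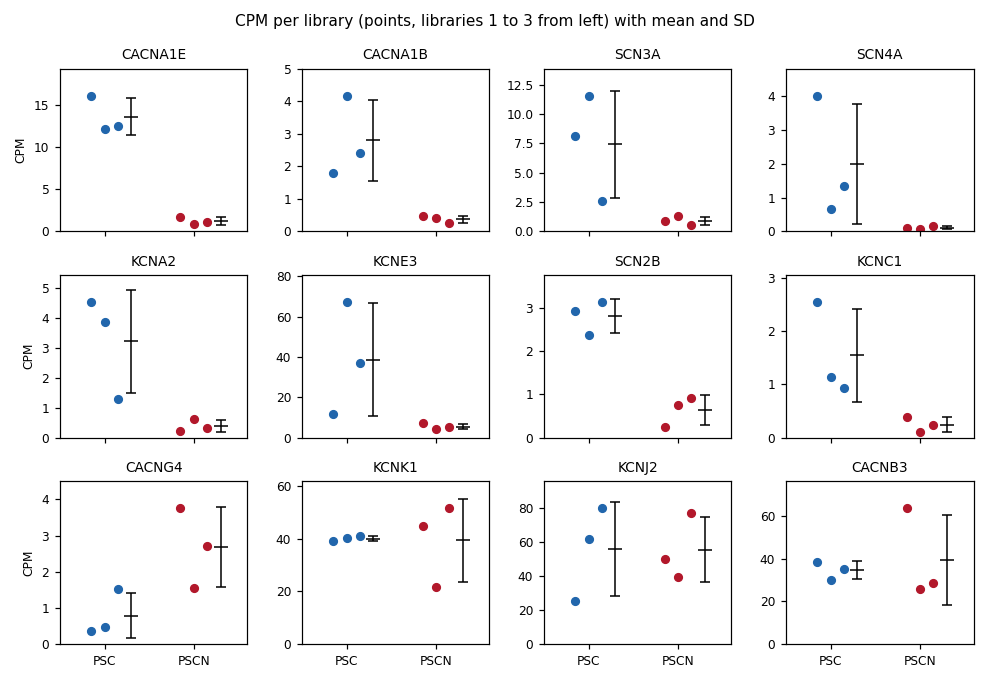
CPM (vertical axes, each from 0) of 12 channel genes in the 3 PSC and 3 PSCN libraries, points in replicate order from left to right, with the mean and SD of each group beside them. CACNA1E separates the groups at 12.2 to 16.1 against 0.85 to 1.71 CPM, CACNG4 is higher in PSCN, and KCNK1, KCNJ2 and CACNB3 overlap.

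Sodium channel alpha subunits, which carry the upstroke of the action potential, were negative in 6 of 6 tested genes, with a median of -2.41 that was -1.14 without PSC library 1 and -1.55 with limma-voom without weights. SCN3A, the channel of the developing nervous system (chromosome 2, 65457118 to 65567627), stood at 8.11, 11.6 and 2.57 CPM in PSC against 0.889, 1.28 and 0.558 CPM in PSCN. PSC library 3 was the lowest PSC library yet above every PSCN library, and the log2 fold change was -3.03 (SE 0.66, edgeR adjusted p = 0.178). SCN4A, the skeletal muscle channel (chromosome 11, 106318592 to 106353288), had 298, 50 and 99 counts across PSC libraries 1 to 3, against 7, 4 and 11 counts in PSCN, with a log2 fold change of -4.22 (SE 0.84, edgeR adjusted p = 0.171). SCN7A, which senses sodium rather than voltage and was the most abundant alpha subunit gene, stood at 129.7, 173.2 and 8.4 CPM in PSC against 19.8, 41.9 and 27.9 CPM in PSCN. It was high in PSC libraries 1 and 2 and lowest in PSC library 3, so the groups overlapped (log2 fold change -1.80, SE 0.97). Among the beta subunits, small membrane proteins that also act in cell adhesion, SCN2B separated the groups with little spread within PSC. It stood at 2.93, 2.38 and 3.13 CPM in PSC against 0.248, 0.742 and 0.907 CPM in PSCN (log2 fold change -2.15, SE 0.53, edgeR adjusted p = 0.187).

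Kv1 to Kv4 genes, the delayed rectifier and A-type channels that repolarize the membrane, were negative in 11 of 13, with 4 lower at an unadjusted p under 0.05 and a median of -1.03, where 50.9% of all genes were negative and 12.2% lower. KCNA2, a Kv1 channel of axons (chromosome 3, 107101146 to 107115005), stood at 4.55, 3.88 and 1.28 CPM in PSC against 0.219, 0.618 and 0.335 CPM in PSCN. No PSCN library reached PSC library 3, the lowest control (log2 fold change -3.05, SE 0.66, edgeR adjusted p = 0.178). KCNC1, a Kv3 channel of fast-firing neurons, stood at 2.55, 1.15 and 0.94 CPM in PSC against 0.394, 0.108 and 0.237 CPM in PSCN (log2 fold change -2.64, SE 0.65). KCNA6 was highest by far in PSC library 1, with 299, 31 and 28 counts in PSC against 0, 0 and 5 in PSCN. KCND3, the A-type channel of heart and brain, had 208, 54 and 23 counts in PSC against 7, 5 and 0 in PSCN. The silent subunits KCNF, KCNG, KCNS and KCNV, which form channels only with other Kv subunits, gave 0 of 6 at an unadjusted p under 0.05. KCNS3, their most abundant member by CPM, stood at 1.12 to 5.11 CPM in PSC against 0.586 to 4.48 CPM in PSCN.

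KCNE3 had the highest mean CPM of the 25 members lower at an unadjusted p under 0.05. It is a small subunit that locks KCNQ1 open in epithelia, where the pair supports chloride secretion. KCNE3 (chromosome 7, 100176502 to 100184869) stood at 11.5, 67.4 and 37.3 CPM in PSC against 7.06, 4.1 and 5.43 CPM in PSCN. Unlike the muscle channels described below, it was lowest within PSC in library 1 and high in library 3 (log2 fold change -2.81, SE 0.65, edgeR adjusted p = 0.181). KCNQ1, its pore-forming partner, stood at 39.2, 24.9 and 8.88 CPM in PSC against 10.8, 7.23 and 6.82 CPM in PSCN, where PSC library 3 lay within the PSCN range. Its log2 fold change was -1.56 (SE 0.55, edgeR adjusted p = 0.200). KCNQ1 shares exonic sequence on the opposite strand with KCNQ1OT1, which stood at 78.7 to 106 CPM in PSC against 63.5 to 77.6 CPM in PSCN. Whether the counting used strand is unknown, and reads of these genes may be mixed. Club cell markers, of secretory airway cells, had their highest sums in PSC libraries 1 and 2, as KCNQ1 did but KCNE3 did not. Their sum over 9 genes was 29680, 21310 and 4834 CPM across PSC libraries 1 to 3, against 1039 to 2850 CPM in PSCN. SCGB1A1 alone stood at 22220, 10730 and 572.3 CPM in PSC. MUC5B and MUC5AC of the same list were highest in PSC library 3, at 939.5 and 23.6 CPM, and the other genes of the list in PSC library 1 or 2. The part of these cells in the KCNE3 and KCNQ1 values was not tested.

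Ether-a-go-go type genes were negative in 4 of 5, with 1 lower at an unadjusted p under 0.05 and a median of -0.89. Of all genes tested, 50.9% were negative and 12.2% lower. KCNH1, a voltage-gated channel of brain that many tumours express, was the most abundant by CPM and did not separate: 4.36, 24.5 and 35.1 CPM in PSC against 36.4, 41.2 and 24.4 CPM in PSCN. Only PSC library 1 stood apart, at a low value (log2 fold change 0.67, SE 0.70). KCNH3 ran the other way, at 16.4, 8.87 and 1.5 CPM in PSC against 1.5, 0.309 and 1.97 CPM in PSCN, with PSC libraries 1 and 2 alone high (log2 fold change -2.82, SE 1.04). Its exons overlap those of MCRS1 on the opposite strand. The cytoplasmic subunits, KCNAB and KCNIP, gave KCNIP2, which traffics Kv4 channels, at 1.8, 1.17 and 1.18 CPM in PSC against 0.656, 0.309 and 0.405 CPM in PSCN. The separation was complete and the log2 fold change was -1.60 (SE 0.42, edgeR adjusted p = 0.188). KCNIP4 and KCNRG, the latter an inhibitor of Kv assembly, were high in PSC libraries 1 and 2 only. KCNIP4 stood at 4.37, 3.08 and 0.395 CPM in PSC and KCNRG at 19.3, 6.72 and 1.55 CPM, with PSCN at 0.247 to 0.467 CPM and 1.17 to 2.55 CPM. KCNAB2, the most abundant of these subunits by CPM, overlapped at 14.8 ± 1.07 and 15.4 ± 3.66 CPM (mean ± SD, n = 3 each; log2 fold change 0.05, SE 0.23, and -0.02 with upper quartile normalization).

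Inward rectifiers and KCNK leak channels, which set the resting potential, had family medians of -0.13 and -0.02. The KCNJ median depended on the setting: it was -1.23 with DESeq2, -1.24 with no filter, -0.64 with limma-voom with quality weights, 0.15 with a filter of 1 CPM in 3 libraries, and -1.10 to -0.29 as each library was left out. The KCNK median was -0.86 without PSCN library 2. KCNJ2, a strong inward rectifier, stood at 25.4, 61.7 and 79.8 CPM in PSC against 50.1, 39.2 and 76.7 CPM in PSCN, with full overlap (log2 fold change -0.01, SE 0.46, with either sign under other settings). KCNK1 stood at 40 ± 1.03 CPM in PSC against 39.4 ± 15.8 CPM in PSCN (mean ± SD, n = 3 each), and per exon length it was the highest of all members tested, at 17.8 CPM per kb. Its log2 fold change was -0.02 (SE 0.32), also of either sign under other settings. The family members with an unadjusted p under 0.05 were less abundant. KCNJ13, a rectifier of transporting epithelia, stood at 8.33, 7.71 and 0.817 CPM in PSC against 0.494 to 0.949 CPM in PSCN, and KCNK12 at 8.92, 5.01 and 0.654 CPM in PSC against 0.0773 to 0.67 CPM in PSCN. In both, PSC library 3 was at the PSCN level. The exons of KCNJ13 overlap those of GIGYF2 on the opposite strand. Calcium- and sodium-activated channels gave 0 of 10 at an unadjusted p under 0.05, against 12.2% of all genes lower and 9.48% higher. KCNN4, the calcium-activated channel of epithelia and lymphocytes, was the most abundant of them by CPM and stood at 10.5 ± 2.45 CPM in PSC against 9.57 ± 2.63 CPM in PSCN (mean ± SD, n = 3 each).

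**Figure D3:**
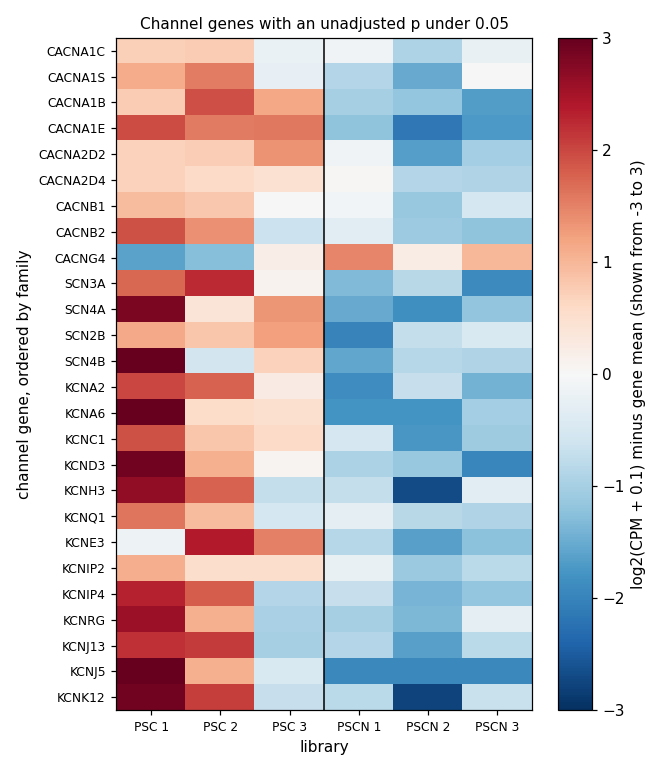
Colour gives log2(CPM + 0.1) minus the gene's mean over 6 libraries for the 26 channel genes with an unadjusted p under 0.05 (rows, by family) in each library (columns), genes chosen by that p. PSC libraries 1 and 2 are red in most rows, PSC library 3 is red for CACNA1E, CACNA1B, CACNA2D2, SCN2B, SCN4A and KCNE3 and pale or blue for KCNIP4, KCNRG, KCNJ13 and KCNK12, and CACNG4 runs the other way.

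Channels of heart muscle were high in a single control. The cardiac muscle markers, 9 of 10 tested, summed to 2599, 81 and 9.26 CPM across PSC libraries 1 to 3, against 18.2, 87.6 and 19.5 CPM in PSCN libraries 1 to 3. MYH6, the atrial myosin, stood at 1294 CPM in PSC library 1, at 9.27 CPM in PSC library 2 and between 0.204 and 1.99 CPM in the rest, so PSC library 1 contained heart muscle transcripts. SCN4B, a sodium channel beta subunit of heart and brain, had 956, 66 and 162 counts in PSC against 26, 44 and 47 counts in PSCN, and its log2 fold change of -3.22 (SE 1.06) was -1.43 without PSC library 1. KCNJ5, a subunit of the acetylcholine-activated channel of atrial muscle, had 1022, 53 and 13 counts in PSC against 0 in each PSCN library. Against a floor of 3 counts per library that is at least 111-fold lower by group means, a bound set by PSC library 1. These genes share the pattern of the marker list, being highest by far in PSC library 1. Of 15 tested members known from heart muscle, a textbook list chosen after the values were seen, 13 were highest in that library. It was the highest library for 46 of all 98 members (46.9%), against 23.8% of all genes tested. Without it 17 members were lower at an unadjusted p under 0.05, as given above, and the median of all members was -0.63 in place of -0.89. The part of heart muscle RNA in the values with that library was not tested. CACNA1E, CACNA1B, KCNA2, SCN3A, SCN2B and KCNE3 had log2 fold changes of -3.31, -3.14, -2.72, -2.96, -2.12 and -3.24 without PSC library 1. Their edgeR adjusted p in that fit ran from 0.231 to 0.402. Others shrank more: KCNRG went from -2.39 to -1.24, KCNA6 from -5.97 to -3.95, KCND3 from -4.39 to -3.08 and KCNQ1 from -1.56 to -1.03.

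**Figure D4:**
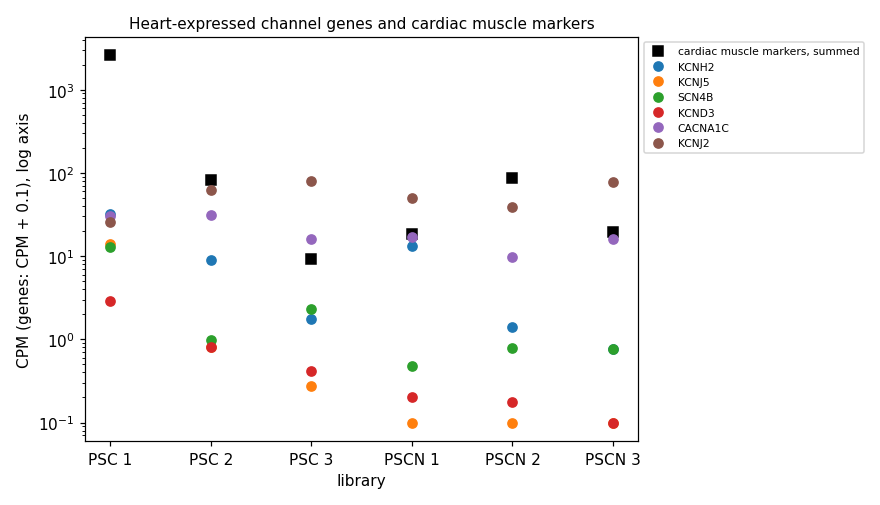
CPM on a log axis in each library for the summed cardiac muscle markers (black squares) and for 6 channel genes of heart muscle (coloured circles, plotted as CPM + 0.1). The marker sum and KCNH2, KCNJ5, SCN4B and KCND3 are highest in PSC library 1, where the sum is 2599 CPM, while KCNJ2 is lowest there.

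Markers of neurons and neuroendocrine cells, other places where these channels are used, had low levels. The 10 tested neuron markers summed to 16 to 47.9 CPM in PSC against 18.9 to 56.8 CPM in PSCN, with TUBB3 making up most of the PSCN sums, at 15.1 to 50.9 CPM. Of these 10 markers, 9 were negative (median -2.01), with 4 lower and 1 higher at an unadjusted p under 0.05. Over all genes tested, 50.9% were negative, 12.2% lower and 9.48% higher. STMN2, a neuronal microtubule regulator, stood at 29.9, 12.8 and 5.5 CPM in PSC against 2.18 to 4.45 CPM in PSCN, and NEFL and NEFM stayed below 1 CPM in every library. The 7 tested neuroendocrine markers summed to 55.5, 38.5 and 11.2 CPM in PSC against 7.17 to 24.8 CPM in PSCN. Ciliated cell markers were negative in 15 of 15, with a median of -3.65. They summed to 1359, 594.7 and 88.3 CPM for PSC libraries 1 to 3 and to 108.4 to 132.3 CPM for PSCN, high in PSC libraries 1 and 2 alone. CFAP43 of this list overlapped, at 39.4 to 133 CPM in PSC against 50.6 to 76.2 CPM in PSCN. KCNH3, KCNIP4, KCNRG, KCNJ13 and KCNK12 were also high in PSC libraries 1 and 2 alone. The pattern was not particular to ciliated cell markers, since the alveolar type 2 sums given below shared it. B cell markers (6 of 6 negative, median -3.29) and mast cell markers (6 of 6 tested negative, median -3.83) were lower in PSCN and high in all 3 PSC libraries by their mean log2 level. Genes read as signs of RNA quality, stress and ribosomal genes among them, were positive in 10 of 12 (median 0.78). Of them, 6 were higher at an unadjusted p under 0.05, against 9.48% of all genes. Smooth muscle and pericyte markers were negative in 7 of 10 (median -2.27). They summed to 1119 CPM in PSC library 1 against 268.3 to 512 CPM in the other libraries. Squamous differentiation markers were positive in 15 of 15 (median 2.88), and alveolar type 2 markers negative in 10 of 10 (median -1.40). The alveolar type 2 markers summed to 7622, 14010 and 1876 CPM for PSC libraries 1 to 3, against 2515 to 3280 CPM for PSCN. The part of each of these lists in the channel results was not tested.

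The 21 members not tested had 32 to 445 counts over all 6 libraries, too few or in too few libraries for the filter, and 17 had most of their counts in PSC, 9 of them in PSC library 1 alone. KCNJ3, the partner of KCNJ5 in atrial muscle, had 424, 21 and 0 counts in PSC against 0 in each PSCN library. SCN10A, a channel of sensory neurons and also of heart, had 85 counts, all in PSC library 1. KCNN2 had 272, 62 and 5 counts in PSC against 0, 0 and 3 in PSCN. These 3 were chosen after their values were seen.

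Partners of these channels were also mostly lower in PSCN, though none passed the adjusted threshold. Of 30 tested partner and regulator genes, 24 were negative (median -0.79), 11 were lower and 0 higher at an unadjusted p under 0.05 (12.2% and 9.48% of all genes), and 0 passed the adjusted threshold in edgeR. CNTNAP2, which clusters Kv1 channels along axons, stood at 7, 2.92 and 2.33 CPM in PSC against 0.146, 0.17 and 0.223 CPM in PSCN (log2 fold change -4.49, SE 0.58, edgeR adjusted p = 0.137). LRRC26, the gamma subunit that lets BK channels open at rest in secretory epithelia, stood at 33.4, 64.5 and 60.3 CPM in PSC against 15.7, 15.5 and 20.4 CPM in PSCN, with PSC library 3 among the high values (log2 fold change -1.61, SE 0.29, edgeR adjusted p = 0.167). KCNMA1, the BK pore itself, stood at 4.54, 18 and 6.69 CPM in PSC against 8.91, 0.0927 and 0.377 CPM in PSCN, so PSCN libraries 2 and 3 were low and library 1 was not. FGF13, a sodium channel modulator, stood at 1.32 to 2.88 CPM in PSC against 0.277 to 0.448 CPM in PSCN. UNC80, an auxiliary subunit of the sodium leak channel, had a log2 fold change of -3.39 (SE 0.67). NALCN, the pore of that leak channel, stood at 4.24, 3.04 and 1.5 CPM in PSC against or below 0.0729 CPM in PSCN. It belongs to the other voltage-gated and related cation channels, where 8 of 12 tested were negative, with 1 lower and 2 higher at an unadjusted p under 0.05. Over all genes tested, 50.9% were negative, 12.2% lower and 9.48% higher, and counts this small do not set the list apart. The 2 higher genes were the sperm channel gene CATSPER4 and the endolysosomal channel gene TPCN2, at log2 fold changes of 0.99 (SE 0.36) and 0.55 (SE 0.21). HCN4, the pacemaker channel, had -2.99 (SE 1.26).

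Pumps and carriers that build the ion gradients had members on both sides. Of 26 tested, 17 were negative (median -0.44), with 7 lower and 2 higher at an unadjusted p under 0.05, against 12.2% and 9.48% of all genes, and 0 past the adjusted threshold in edgeR. ATP2A3, a calcium pump of the endoplasmic reticulum, stood at 182.9, 149.3 and 57.2 CPM in PSC against 19.9, 24.8 and 24.8 CPM in PSCN (log2 fold change -2.49, SE 0.44, edgeR adjusted p = 0.164). SLC12A2, which loads chloride for secretion across the basolateral membrane, stood at 238.2, 328.4 and 215.6 CPM in PSC against 158.7, 174 and 153.7 CPM in PSCN (log2 fold change -0.69, SE 0.20). ATP2B2, a calcium pump of the plasma membrane, was high in PSC libraries 1 and 2, at 19.5 and 10.1 CPM, and lay at or below 0.67 CPM in the other 4. FXYD4, a modulator of the sodium pump, was higher: 1.08, 3.93 and 4.55 CPM in PSC against 8.53, 57.4 and 13.1 CPM in PSCN (log2 fold change 3.05, SE 0.93, edgeR adjusted p = 0.192).

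Per exon length, 68 of the 98 tested members were below 1 CPM per kb and the median was 0.425 CPM per kb. Members at or above 5 CPM per kb included KCNK1 (17.8), KCNE3 (12.4), KCNJ2 (10.2), CACNB3 (9.24), SCN7A (9.11) and KCNK6 (5.67). Of the abundant genes named here, only KCNE3 was lower at an unadjusted p under 0.05. KCNK6, a leak channel of epithelia, stood at 17.3, 20 and 32.7 CPM in PSC against 17.9, 44.6 and 8.59 CPM in PSCN. Exons of 34 tested members overlap those of another gene in GENCODE M21, most on the opposite strand, and their counts carry that uncertainty.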

How the data were processed

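Stranded total RNA libraries of 6 biopsies were read in pairs at 76 nt, per the labels' protocols. Trimming with Trimmomatic, HISAT2, StringTie, DESeq2 and the build GRCm38 are named in the submitters' processing notes, and versions are not given in the sources used here. The authors deposited estimated counts per gene symbol, already whole numbers. They also deposited DESeq2's mean normalized signal, its log2 fold changes with standard errors, its Wald score, and p-values. Columns C1 to C3 were taken as PSC and N1 to N3 as PSCN replicates from their letters and numbers; no label states this.

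Genes passing filterByExpr (21201) were normalized with TMM and tested with edgeR 4.0.16 in R 4.3.3 (quasi-likelihood F test, 4 residual and 2.03 prior degrees of freedom), with Benjamini-Hochberg adjustment over all genes and a threshold of 0.05. SE is the log2 fold change's size divided by the square root of F. An exact permutation test of 3 against 3 cannot go below 0.1 and was not used. The replicate numbers are not said to pair samples, and the main fit did not pair them. Alternatives were RLE and upper quartile normalization, DESeq2 1.42.0, limma 3.58.1 voom with and without quality weights, adjusted deviances, other filters, each library left out, a replicate block and sex. Exon lengths came from GENCODE M21. The tools were tested on simulated data, where a larger share of DESeq2's calls than of edgeR's was false. In the same data edgeR missed a larger share of the differing genes than DESeq2 did. Whether either holds for the libraries used here was not tested.

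Per family, the members named were the most abundant by CPM and up to 3 with the smallest unadjusted p under 0.05, plus the 25 smallest overall. Partner, pump and other cation channel genes were the up to 4 of each list with the smallest p. CACNA1A, KCNMA1, KCNK6 and members not tested were named after their values were seen. Members and lists were chosen with earlier results of these data known. Some members that this rule picks are not reported here.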

Additional observations from a re-analysis of the deposited data

How the results depend on the processing

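The number of calls changed with the setting. Of 36 named members, 31 kept their sign under all 16 alternatives, and 17 of 566 pairs of gene and setting turned, in genes with small differences. Most of these members were named for a small p in the same data, so the count says little of direction in general. Those that turned, KCNAB2, KCNJ2, KCNN4, KCNK1 and CACNB3, were named for their abundance. At an adjusted p under 0.05, 24 members were lower with DESeq2 and 12 with limma-voom with quality weights, which also called 1 higher, against 0 in edgeR. Of all genes, 8.2% and 5.84% were lower with these tools, and 8.43% were higher with limma-voom. Leaving out each library gave 0 to 16 lower and 0 to 1 higher. The 16 came without PSC library 3, where 5.4% of all genes were lower and 3.39% higher. At an unadjusted p under 0.05, members lower numbered 16 with limma-voom without weights, 15 with a filter of 1 CPM in 3 libraries, and 16 to 39 as each library was left out. Members higher numbered 2 with limma-voom with quality weights, 3 with sex as a covariate, and 0 to 1 as each library was left out. Of all genes, 12.2% were lower at that p in the main fit. The share was 7.18%, 7.75% and 17.3% without PSC libraries 1, 2 and 3, and 7.44% without PSCN library 2. It was not computed for the other settings, the replicate block among them, so these counts cannot be compared across settings. The members' median log2 fold change ran from -1.57 (without PSCN library 1) to -0.63 (without PSC library 1). The cause was not tested.

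The labels give no animal or day shared by replicate number, so the samples were not treated as paired in the main fit. Deviations of same-numbered samples correlated at 0.186, -0.053 and 0.016, and not every sample correlated best with its own number. So few values cannot exclude a shared day or batch. With the replicate block, 25 members were lower and 2 higher at an unadjusted p under 0.05, 0 passed the adjusted threshold, and the median was -0.85.

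KCNAB2 was -0.02 with upper quartile normalization and -0.12 to 0.17 as libraries were left out. KCNJ2 was 0.12 and 0.09 with limma-voom with and without quality weights, 0.08 with the replicate block, 1.12 with sex as a covariate, and -0.35 to 0.36 as libraries were left out. KCNN4 was 0.07 with limma-voom with quality weights and -0.32 to 0.06 as libraries were left out. KCNK1 was 0.01 with sex as a covariate and -0.30 to 0.22 as libraries were left out. CACNB3 was -0.33 to 0.37 as libraries were left out. With 1 library left out, a group holds 2 samples. Family medians moved by more than 1 SD in 38 of 272 pairs of family and setting.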
